A study of Homo sapiens with 52 samples.

Results

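The genes examined here are 8 genes of the nuclear lamina and nuclear envelope, namely LMNA, LMNB1, LMNB2, LBR, TMPO, LEMD3, SYNE1 and SYNE2. They were chosen by name, and the 100 kb bins that overlap their positions on the human genome build hg19 were taken. This gave 19 bins of the 26584 with a value, and all 19 had a value in every cell. Another 320 bins, 20 on each side of each gene, gave the surroundings within 2 Mb. The assay was single-cell DamID in KBM7, a human cell line from chronic myeloid leukaemia. All cells came from clone 14, are labelled 2N and carried Dam fused to LaminB1, and methylation by Dam was induced over 15 h at 0.5 nM Shield1. Single cells were sorted from the smallest 2% with both Fucci cell cycle reporters. The labels describe 52 cells, of which 51 are analysed and cell 47 is not analysed here.

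The nuclear lamina is a protein mesh on the inner face of the nuclear membrane. It is built from A-type lamins, encoded by LMNA, and B-type lamins, encoded by LMNB1 and LMNB2, and proteins of the inner membrane such as those of LBR, TMPO and LEMD3 bind it or the chromatin beside it. SYNE1 and SYNE2 encode nesprins, giant proteins that span the outer membrane and join the nucleus to the cytoskeleton. Chromatin near the lamina is known for low gene activity. DamID reads this nearness as adenine methylation of the sequence GATC, and the question here was where the genes that build the structure themselves lie relative to it.

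Each value was a ratio of observed to expected signal (OE), and an OE of 1 or more counted as contact of that bin in that cell. Whole reads recovered from the ratios numbered 142493 per cell in the median, with 50976 in the shallowest (cell 9) and 316409 in the deepest (cell 26). The threshold corresponded to 2.11 and 13.1 reads in these cells for a bin with the median expected number of 314. This number is the whole number, as recovered here, by which a bin's reads are divided in the authors' ratios. In bins with few reads it can lie below the authors' own. Since the labels name no cultures, the cells of this 1 clone count as 1 sample. SDs therefore describe the spread between these cells, and no p-value is given.

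The 250 bases before the outermost annotated start of 4 of the genes are shown with the GATC sites that Dam can methylate. They are from RefSeq (GRCh38.p14, a later build than that of the bins), written along the gene's strand, with each GATC in capitals. TMPO (chr12:98515323-98515572, plus strand) and LMNB1 (chr5:126776373-126776622, plus strand) are shown because both lay free of contact between contacted stretches. SYNE1 (chr6:152637363-152637612, minus strand) and SYNE2 (chr14:63852754-63853003, plus strand) are shown because both were contacted.
TMPO: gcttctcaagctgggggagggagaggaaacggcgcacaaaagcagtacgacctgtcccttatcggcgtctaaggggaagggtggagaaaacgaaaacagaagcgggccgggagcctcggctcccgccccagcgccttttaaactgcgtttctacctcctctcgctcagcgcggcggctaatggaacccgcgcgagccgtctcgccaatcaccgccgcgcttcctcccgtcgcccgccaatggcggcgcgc
LMNB1: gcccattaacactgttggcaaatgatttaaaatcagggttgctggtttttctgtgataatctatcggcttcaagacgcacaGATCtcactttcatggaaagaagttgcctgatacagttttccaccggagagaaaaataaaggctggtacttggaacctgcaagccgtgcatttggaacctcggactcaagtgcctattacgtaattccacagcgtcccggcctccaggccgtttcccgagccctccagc
SYNE1: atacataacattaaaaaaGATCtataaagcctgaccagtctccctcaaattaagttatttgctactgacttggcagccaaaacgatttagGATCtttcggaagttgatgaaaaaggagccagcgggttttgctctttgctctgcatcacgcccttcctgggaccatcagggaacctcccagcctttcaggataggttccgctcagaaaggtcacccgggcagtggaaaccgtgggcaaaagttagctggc
SYNE2: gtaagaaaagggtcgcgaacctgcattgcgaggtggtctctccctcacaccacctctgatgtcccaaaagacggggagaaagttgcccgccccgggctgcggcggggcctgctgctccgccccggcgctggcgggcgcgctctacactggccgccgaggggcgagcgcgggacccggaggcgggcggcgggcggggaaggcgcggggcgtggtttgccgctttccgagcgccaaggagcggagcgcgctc
GATC, which reads the same on both strands, occurred 1 time in the LMNB1 window and 2 times in the SYNE1 window, and did not occur in those of TMPO and SYNE2. Over all annotated starts, it occurred in 0 of 2 windows of TMPO, 1 of 2 of LMNB1, 3 of 4 of SYNE1 and 2 of 3 of SYNE2. Of 34943 RefSeq windows of this length, 35.8% held it. The windows of TMPO and SYNE2 were rich in G and C (64.8% and 72.8%, with 30 and 33 CpG), those of LMNB1 and SYNE1 less so (48.4% and 47.6%, with 10 and 7 CpG). A window is far smaller than a bin, and the 4 bins that hold these starts had recovered expected numbers of 252, 280, 325 and 228 in the order shown. Those of TMPO and LMNB1 rest on few reads and may lie below the authors' own.

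Of the 8 genes, 4 were not in contact in any cell. LMNA, LMNB1, LMNB2 and TMPO had no contacted bin in any of the 51 cells, while LBR and LEMD3 had one in 5 cells each, SYNE2 in 29 and SYNE1 in 47. Counted by bin, 6 of the 19 bins (31.6%) were contacted in no cell, against 38.7% of all bins. At the other end, 3 of 19 (15.8%) reached contact in 50% of cells and 2 of 19 (10.5%) in 80%, against 32.1% and 20.9% of all bins. The share without contact was therefore near that of the genome, and the 19 bins are not independent, since 6 belong to SYNE1 and 4 to SYNE2. Over all bins and cells, 26.9% of the genes' values were contacts, against 26.3% of the values within 2 Mb and 31.5% of all values. The median bin was contacted in 25.5% of cells among the genes' own bins, in 3.92% within 2 Mb and in 7.84% of the whole genome. The median of the own bins reflects SYNE1 and SYNE2, as no bin of another gene was contacted in more than 9.80% of cells.

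**Figure D1:**
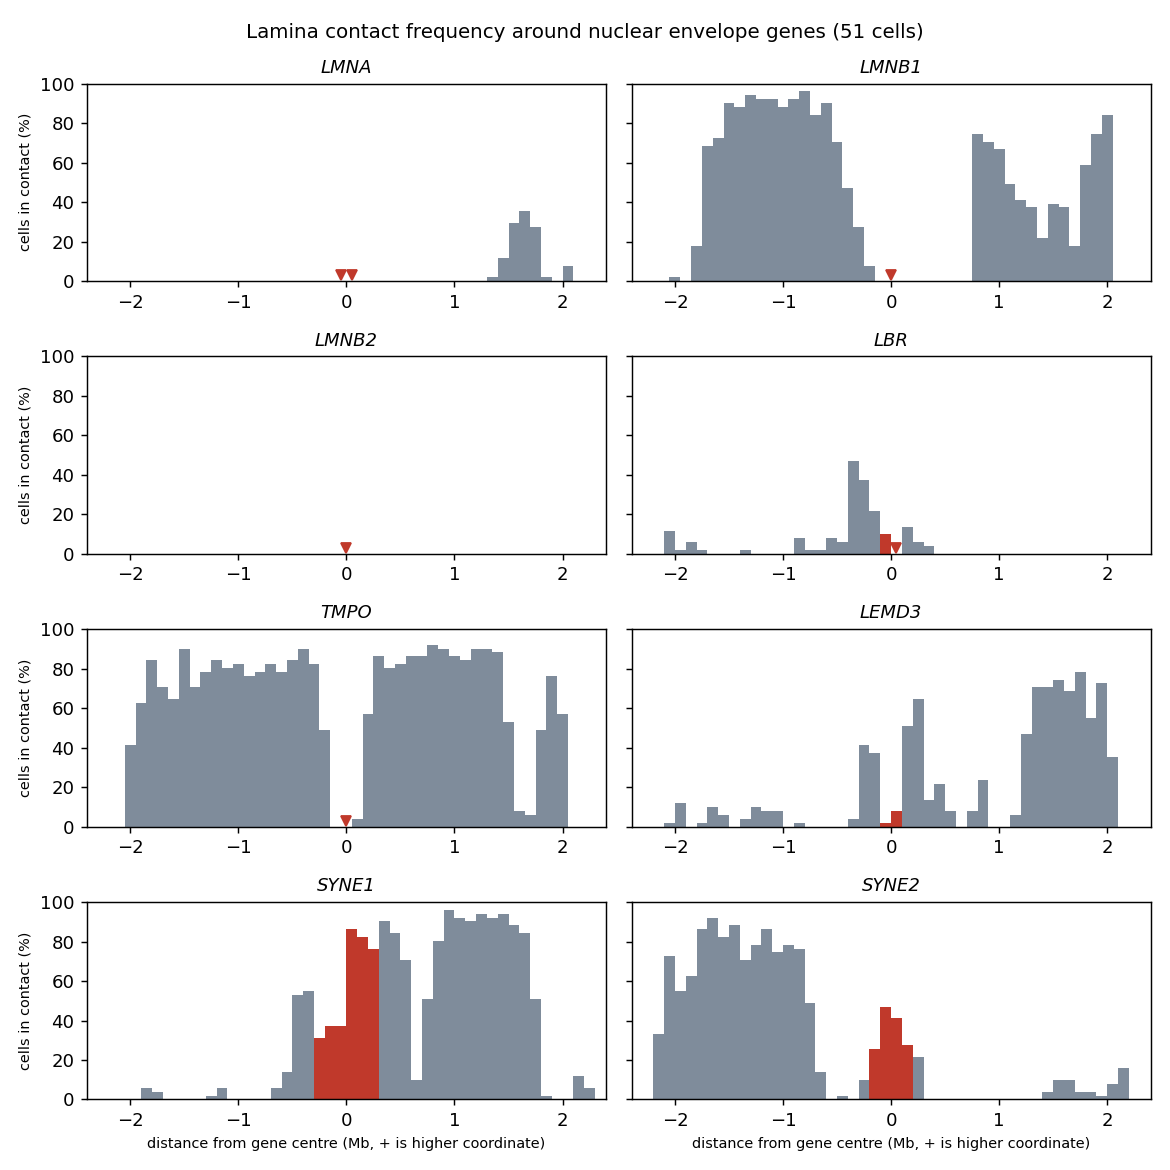
Share of the 51 cells in contact (vertical axis, percent) in each 100 kb bin, by distance from the gene's centre in Mb. Red bars are the gene's own bins, grey bars the bins within 2 Mb, and red triangles own bins contacted in 0 cells. LMNB1 and TMPO sit in gaps between contacted stretches, LMNA and LMNB2 far from frequent contact, SYNE1 beside contacted bins on both sides and SYNE2 in a peak of its own.

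Among the lamins, the 3 genes shared the absence of contact but not the surroundings. LMNA, which encodes lamins A and C through splicing, overlapped 2 bins of chromosome 1 from 156000001 to 156200000. Its mean OE over both bins was 0 in 49 cells and reached 0.0956 in cell 23. Both bins together yielded at least 2 reads over all 51 cells. Each had a value above 0 in only 1 cell, which cannot tell 1 read from more. Contact in 0 of 51 cells allows a share of up to 5.88% (the limit of 3 counts), which treats cells as independent draws. No bin within 2 Mb on the lower side was contacted in any cell. On the higher side contact was 5.78% ± 7.77 (SD, n = 51 cells), and it was highest from 157700001 to 157800000, where 18 cells (35.3%) had contact. The nearest bins contacted in at least 50% of cells lay 13.4 Mb below and 2.2 Mb above the gene. LMNA thus stood inside a run of 4.3 Mb, from 153200001 to 157500000, whose bins were each contacted in at most 5% of cells, as 46.7% of all bins were. In the order of coding genes in RefSeq (GRCh38.p14) it lies between MEX3A and SEMA4A.

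LMNB2, which encodes lamin B2, overlapped 1 bin of chromosome 19 from 2400001 to 2500000. Its OE was 0 in 50 cells and 0.196 in cell 5, the only cell with a read there. None of the 40 bins within 2 Mb was contacted in any of the 51 cells. The run of such rarely contacted bins (at most 5% of cells) that holds it covered 20 Mb, from 200001 to 20200000, and 1344 of the genome's 1346 such runs were no longer than this. No bin of the chromosome reached contact in at least 50% of cells. LMNB2 is flanked by TIMM13 and GADD45B.

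LMNB1, which encodes lamin B1, the protein to which Dam was fused, overlapped 1 bin of chromosome 5 from 126100001 to 126200000. Its OE was 0 in 47 cells and at most 0.184, in cell 27. Over all cells 4 reads were recovered from an expected number of 280, both the lowest that fit. Its surroundings were of another kind than those of the other lamin genes. Contact within 2 Mb was 47.4% ± 14.9 (SD, n = 51), lowest 0% in cell 42, median 47.5% and highest 70.0%. The gene lay below its flanks in 50 of 51 cells, and in cell 42 both were at 0%. The difference was -47.4 percentage points ± 14.9, which restates the flank share, as the gene was at 0% in every cell.

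The stretch below LMNB1 was contacted in 61.1% ± 15.6 of its bins and the stretch above it in 33.6% ± 20.2. The bin from 125300001 to 125400000 was contacted in 49 of the 51 cells. The next bins toward the gene were contacted in 43 and 46 cells. Contact was then less frequent from bin to bin, with 36 cells from 125600001, 24 from 125700001, 14 from 125800001, 4 from 125900001 and 0 from 126000001. The other edge was abrupt, with contact in 0 cells from 126800001 to 126900000 and in 38 cells in the next bin. Between these edges 9 bins in a row, from 126000001 to 126900000, were contacted in at most 5% of cells, and LMNB1 occupied the second of them. Its coding neighbours are SPMIP10 and MARCHF3.

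Genes of inner membrane proteins differed among themselves. TMPO encodes the LAP2 proteins, which bind lamins and, through a LEM domain, the chromatin protein BAF. It overlapped 1 bin of chromosome 12 from 98900001 to 99000000. The OE of this bin was 0 in 49 cells and reached 0.199 in cell 24, with at least 2 reads over all cells. Contact within 2 Mb was 69.6% ± 19.9 (SD, n = 51), lowest 0% in cell 42, median 75.0% and highest 92.5%. These were the most contacted surroundings of the 8 genes. The gene differed from them by -69.6 points ± 19.9, lying lower in 50 of 51 cells. As it was at 0% in every cell, this difference restates the flank share. At an OE of at least 2 the difference was -45.5 points, and against 5 Mb on each side it was -41.5.

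The gap around TMPO was narrow. Only 3 bins in a row, from 98800001 to 99100000, were contacted in at most 5% of cells (in 0, 0 and 2 cells). Contact was present in 42 cells in the bin from 98600001 and in 25 in the bin from 98700001. On the far side 29 cells had contact from 99100001 and 44 from 99200001, and 33 of the 40 surrounding bins reached 50% of cells. In 28 cells the nearest such bin on each side was called in contact. The TMPO bin, which was contacted in no cell at all, held no read in 26 of them. At LMNB1, also contacted in no cell at all, the same count was 29 cells, with no read at the gene in 27. As methylation was induced over 15 h in cells labelled 2N, these counts cannot show contact of both sides at the same moment. Nor can they show contact on the same copy of the chromosome. Over the genome 257 runs of such rarely contacted bins had a bin of at least 50% within 5 bins of each end. Their median length was 0.2 Mb. The TMPO run of 0.3 Mb was as long as or longer than 68.5% of them, and the LMNB1 run of 0.9 Mb than 88.3%. In gene order TMPO lies between NEDD1 and SLC25A3.

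**Figure D2:**
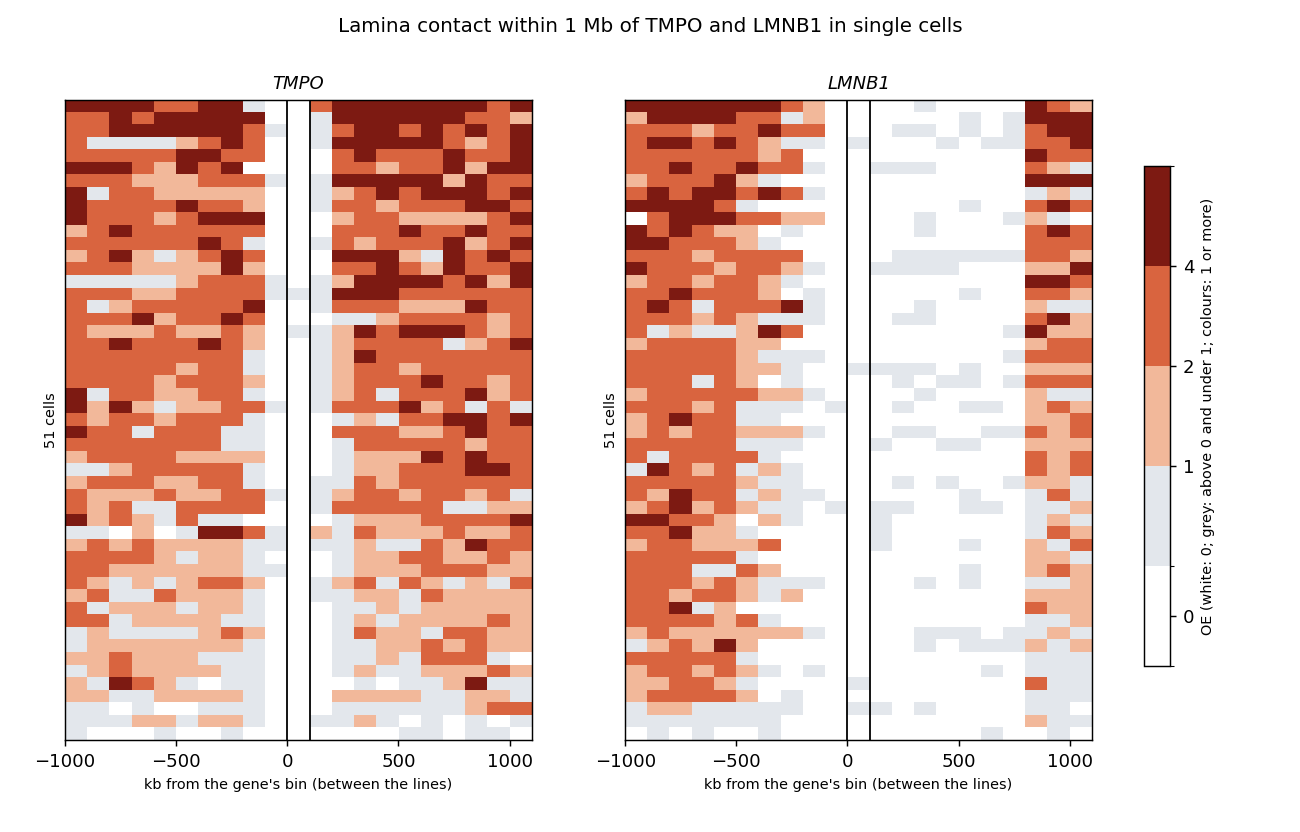
OE in each of the 51 cells (rows, ordered by mean OE) and each 100 kb bin within 1 Mb (horizontal axis, kb from the gene's bin), with the gene's bin between the black lines. White is 0, grey is under 1 and colours are contacts. The column of TMPO and that of LMNB1 held no contact in any row, and only 2 and 4 rows had a read there.

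LBR encodes the lamin B receptor, a membrane protein that binds lamin B and heterochromatin and also acts in sterol synthesis. It overlapped 2 bins of chromosome 1 from 225500001 to 225700000. Its mean OE over both bins was 0 in 20 cells, with a median of 0.112 and a highest value of 0.883 in cell 52. The bin that holds its start, from 225600001, was contacted in 0 cells and had an OE of at most 0.696. The bin that holds its end was contacted in cells 3, 8, 39, 46 and 52, at OE values of 1.07, 1.17, 1.05, 1.08 and 1.77. These calls rested on 6, 4, 4, 12 and 6 reads, and 4 of the 5 lay close to the threshold. Contact around LBR was 4.46% ± 5.57 (SD, n = 51) and was highest from 225200001 to 225300000, in 24 cells (47.1%). The gene's own share of 4.90% ± 15.0 differed from this by 0.441 points ± 14.18, well within the spread between cells. At an OE of at least 2 no cell had contact at LBR, and at an OE of at least 0.5 its share was 12.7%. LBR thus lay beside a small contact peak at lower coordinates. On its other side the next bin, from 225700001 to 225800000, was contacted in 7 cells. In gene order LBR lies between DNAH14 and ENAH.

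LEMD3 encodes MAN1, an inner membrane protein with a LEM domain that binds SMAD proteins. It overlapped 2 bins of chromosome 12 from 65500001 to 65700000. Its mean OE was 0 in 24 cells, with a median of 0.0545 and a highest value of 1.03 in cell 8. The bin that holds its start was contacted in cell 3 alone, at an OE of 1.05. The bin that holds its end was contacted in 4 cells, cell 7 (OE 1.55), cell 8 (2.06), cell 11 (1.06) and cell 15 (2.00). Its own share of 4.90% ± 15.0 stood against 22.8% ± 12.7 within 2 Mb, a difference of -17.9 points ± 15.0, with the gene lower in 41 cells, higher in 4 and equal in 6. The difference was -9.22 points against 1 Mb on each side, -26.9 against 5 Mb and -9.46 at an OE of at least 2. The gene's share was 8.00% in odd-numbered cells and 1.92% in even-numbered ones. The share rested on few calls, with 0.980% at an OE of at least 2 and 8.82% at an OE of at least 0.5.

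Small contact peaks stood directly on both sides of LEMD3. The 2 bins before it were contacted in 21 and 19 cells, and the 2 bins after it in 26 and 33. The wider surroundings were uneven, with 7.25% ± 8.14 below the gene and 38.4% ± 20.9 above it. In 5 cells, numbers 6, 10, 18, 20 and 32, no bin within 2 Mb was contacted. Chromosome 12 as a whole was then contacted in 7.78% (cell 18) to 28.1% (cell 20) of its bins. LEMD3 lies between WIF1 and MSRB3.

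**Figure D3:**
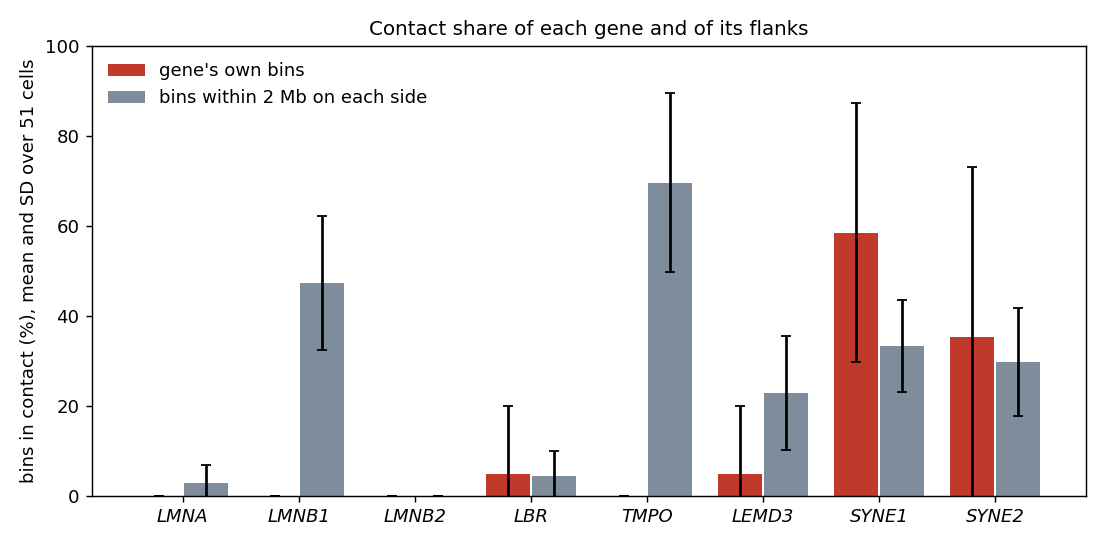
Mean share of bins in contact (vertical axis, percent, from 0) in each gene's own bins (red) and in the bins within 2 Mb on each side (grey), with error bars of 1 SD over 51 cells. TMPO and LMNB1 were at 0% against 69.6% and 47.4% around them, while SYNE1 stood at 58.5% against 33.3%. The last value is a mean of unlike sides, 7.25% at lower and 59.4% at higher coordinates.

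The nesprin genes were the contacted members. SYNE1 overlapped 6 bins of chromosome 6 from 152400001 to 153000000 and was contacted in 58.5% ± 28.7 of them (SD, n = 51). Its mean OE was lowest at 0.0740, with a median of 1.51 and a highest value of 4.01 in cell 27, and reads over the gene ranged from 2 to 188 with a median of 62. Contact within 2 Mb was 33.3% ± 10.2, so the gene lay above its flanks by 25.2 points ± 23.3, in 46 cells, and below them in 4. With the threshold at 2 its share was 30.1% and the difference 7.71 points, and against 1 Mb on each side the difference was 13.8. The sides differed, with 7.25% ± 6.66 below the gene and 59.4% ± 16.8 above it. In the mean, the gene's share thus exceeded that of the lower side only. The nearest bins contacted in at least 50% of cells touched the gene on both sides, at 28 and 46 cells.

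Contact was uneven along SYNE1. The gene is read toward lower coordinates, and the 3 bins of its start side were contacted in 39, 42 and 44 of 51 cells, in order from the start. The 3 bins of its end side were contacted in 19, 19 and 16 cells. The mean OE of the start side was lowest at 0.148, with a median of 2.14 and a highest value of 5.41, against 0, 0.662 and 2.60 in the end side. The sides of the gene thus overlapped over cells, yet within a cell the OE was higher in the start side in 49 of 51. In contact share the start side had 81.7% ± 32.9 and the end side 35.3% ± 35.5, a difference of 46.4 points ± 37.2. The start side was higher in 38 cells, equal in 12 and lower in 1. This split was chosen after the values were seen. The highest bin, from 152700001 to 152800000, was contacted in 86.3% of cells (95% Wilson interval 74.3% to 93.2%) and the lowest, from 152400001 to 152500000, in 31.4% (20.3% to 45.0%). The intervals cover counting error only and treat cells as independent. They do not allow for the bins having been picked as highest and lowest from these same calls.

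All 6 bins of SYNE1 were in contact in 7 cells, and no bin in 4. In 16 cells the start side alone had contact, in 1 the end side alone, and in 30 both. Contact calls of adjacent bins, from the start of the gene to its end, had phi correlations over cells of 0.592, 0.563, 0.307, 0.413 and 0.266. The higher values were those within the start side. These are descriptions over 51 cells that share each cell's depth. Over cells, the SYNE1 contact share correlated with reads at r = 0.379 (Pearson) and rho = 0.400 (Spearman), with r = 0.342 when the 2 farthest cells were left out. With the contact share of the genome these values were 0.574, 0.546 and 0.519. The part of depth in the cell-to-cell spread was not tested. After all cells were thinned to the lowest read total, the difference between these sides was 39.2 points.

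SYNE2 overlapped 4 bins of chromosome 14 from 64300001 to 64700000 and was contacted in 35.3% ± 37.8 of them (SD, n = 51). Its mean OE was lowest at 0, with a median of 0.694 and a highest value of 4.44 in cell 31. Cells ranged from none of its bins contacted, in 22 cells, to all 4, in 8 cells, so the spread between cells exceeded the mean. Contact within 2 Mb was 29.8% ± 11.9, and the difference of 5.54 points ± 31.6 was far inside the spread, with the gene higher in 22 cells and lower in 28. It was 14.7 points against 1 Mb on each side, 14.3 against 5 Mb, 0.2 in odd-numbered cells and 10.7 in even-numbered ones. At an OE of at least 0.5 it was 12.2 points and at 2 or more 1.91. With the threshold at 2 its share was 19.1%. Behind this mean lay 55.6% ± 20.5 below the gene and 3.92% ± 7.23 above it.

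Contact at SYNE2 formed a peak of its own. Its bins were contacted in 13, 24, 21 and 14 cells from start to end, with the highest at 47.1% (95% Wilson interval 34.1% to 60.5%). The bins directly beside the gene were contacted in 5 and 11 cells. Next to these, the bins from 63900001 to 64200000 were contacted in 0, 1 and 0 cells, and those from 64800001 to 65600000 in none. The large contacted stretch below it ended 0.6 Mb away, where 39 cells had contact from 63600001 to 63700000. The mean OE of the start side, 1.10 ± 1.29, was within the spread of that of the end side, 1.02 ± 1.07, and each was the higher one in 24 cells. Adjacent bins of SYNE2 had phi correlations of 0.530, 0.648 and 0.467.

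**Figure D4:**
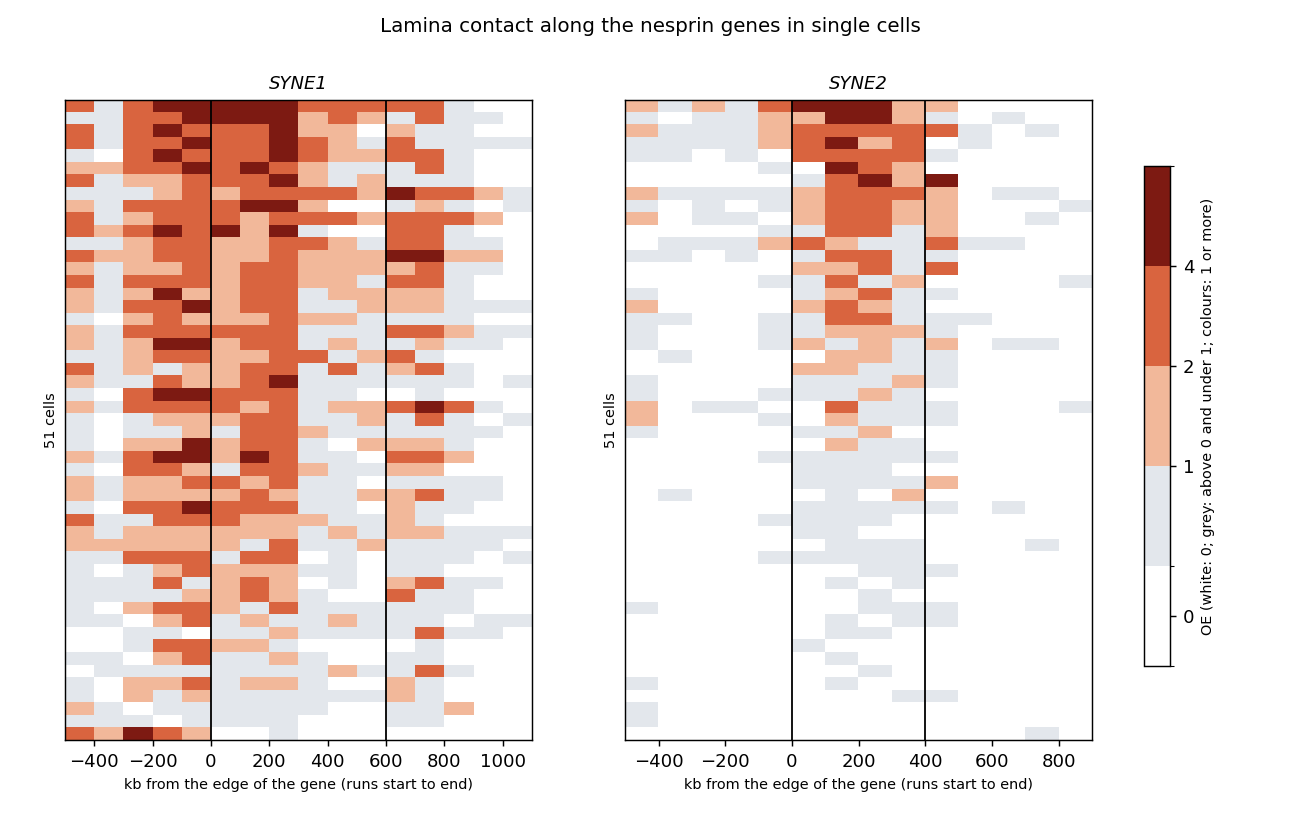
OE in each of the 51 cells (rows, ordered by the gene's mean OE) and each 100 kb bin (horizontal axis, kb from the edge of the gene, read from its start to its end), with the gene between the black lines and 0.5 Mb on each side. White is 0, grey is under 1 and colours are contacts. Contact of SYNE1 was densest in its start side (81.7% of bins in contact as a mean over cells, against 35.3% in the end side). That of SYNE2 was highest inside the gene, reached the bin after its end in 11 cells, and was absent from the gene in 22 cells.

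Across the genes, a cell had contact at a mean of 1.69 ± 0.707 of the 8 genes (SD, n = 51), and no cell had contact at more than 4. A gene was counted here if any of its bins was contacted. SYNE1 with 6 bins and SYNE2 with 4 thus had more chances to be counted than the others with 1 or 2. The same count for sets of other bins of these sizes is not given here. The commonest state was contact at SYNE1 and SYNE2 and at no other of the 8 genes, in 21 cells, followed by SYNE1 alone, in 19. Over cells, the contact shares of SYNE1 and SYNE2 correlated at r = 0.117 (Pearson) and rho = 0.167 (Spearman), with r = 0.0833 when the 2 farthest cells were left out. SYNE2 was the only gene with contact in between 10% and 90% of cells, so no phi correlation between members was computed. Both nesprin genes lie next to an oestrogen receptor gene in gene order, SYNE1 between ESR1 and MYCT1 and SYNE2 between SGPP1 and ESR2.

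The bin that holds the start of the gene was contacted in no cell for 5 of the 8 genes (62.5%, against 38.7% of all bins). It was contacted in 1 cell for LEMD3, in 13 for SYNE2 and in 39 for SYNE1. These 5 bins are among the 6 of 19 counted above. The share of all bins is not one of bins that hold gene starts, and it counts 1985 bins without a read in any cell. Cell 42 stood apart at 4 of the genes. Only 24.1% of its genome was in contact, the lowest of the 51 cells. It had no contact within 2 Mb of LMNB1, TMPO or SYNE1, although 13, 29 and 36 reads fell in those flanks. The whole chromosomes of these genes were contacted in 10.2% (LMNB1), 11.2% (TMPO) and 23.3% (SYNE1) of their bins in this cell, so low contact was not confined to the flanks. All 4 bins of SYNE2 were in contact in the same cell, at a mean OE of 3.92, and its OE of 7.29 was the highest of any cell in the second bin of that gene.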

How the data were processed

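The submitters' processing notes name hg19 as the build, with Cutadapt and Bowtie2 2.1.0. The authors deposited, for each cell and each of 30376 bins of 100 kb, the ratio of observed over expected signal (OE). The origin of the expected signal and the handling of duplicate reads are not given in the sources used. Bins without values (3792, in every cell) were dropped, and 1985 of those kept were at 0 throughout.

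Reads were recovered from the ratios, since a ratio times a constant of its cell gave reads over an integer that belongs to the bin (its expected number). The constant came from the spacing of the lowest values. The smallest integer that left a bin's reads whole within 0.02 was taken, and one was found for 100% of values. In bins with few reads, both this integer and the reads can be lower than the authors' own. Reads in a bin never exceeded its expected number (highest quotient 1), so they may be distinct sites, and depth means their total. The recovery was tested on simulated data.

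Genes were placed by given hg19 positions, which are rounded to 10 kb. Strand, gene order and sequences came from RefSeq tables of GRCh38.p14, matched by symbol for all 8 genes. All 8 genes are named, and other bins only as the nearest bins contacted in at least 50% of cells, as the highest and lowest within 2 Mb, or to trace the edges of contact. A further list of nuclear envelope genes was not analysed here, since hg19 positions for it were not used. The members and lists were chosen with earlier results of these data known. Cells of the clone formed 1 group and 1 sample, so there was no test. Python 3.11.15, NumPy 2.4.6, pandas 2.3.3, SciPy 1.17.1 and Matplotlib 3.10.9 were used. Alternatives were other OE thresholds and flanks, subsets of cells or bins, and thinning of all cells to the lowest total, as the mean of 20 draws.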

Additional observations from a re-analysis of the deposited data

How the results depend on the processing

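Of 176 values recomputed under other settings, 165 lay within 1 SD over cells of the main value and did not take the opposite sign. Among these, LMNA minus flank was 0 with flanks of 1 Mb. This yardstick is wide, as the SD was 50.3 points for the highest minus the lowest bin of SYNE1. Some values could not change, since no bin of the genes was without reads or had an expected number under 100. The shares of LMNA, LMNB1, LMNB2 and TMPO were 0% under the alternatives run. At a higher threshold or in fewer cells, these shares could not have differed. Of the gene minus flank differences, at an OE of at least 2 that of LMNB1 was -32.0 points, that of TMPO -45.5 and that of LBR -1.72. With flanks of 5 Mb that of LMNA was -7.24, that of LMNB2 -0.0269, that of TMPO -41.5 and that of LBR -3.82. For LMNB2, with a main value of 0, it was -0.196 at an OE of at least 0.5 and -0.150 after thinning. For LBR, whose main value of 0.441 lay far inside the spread, it was also -0.800 in odd-numbered cells and -2.84 with flanks of 1 Mb. At an OE of at least 2 the smaller differences of LMNB1 and TMPO follow from fewer calls in the flanks, and that of LBR from its own share of 0%. For the others the cause was not tested. The difference between the start and end of SYNE1 ranged from 33.3 to 50.7 points. The omission of the 5 cells of highest background and that difference were chosen after seeing the data. No paired analysis was possible because there is 1 group and no test. Depth limits single calls, such as those at LBR, which rested on 4 to 12 reads.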
